A study of Ambystoma mexicanum with 8 samples.

Results

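The class 3 semaphorins *sema3a* and *sema3c* were followed through 3 assembled transcripts, or contigs, of 91843 in the deposited tables. Contig TR16445|c1_g2_i1 carried the protein name SEM3A, and contigs TR27786|c1_g1_i1 and TR27786|c3_g1_i1 both carried the name SEM3C. These contigs were selected on measured values, because the protein names come from the list of transcripts that the study had itself found to differ between the same 8 libraries. Their levels and fold changes are therefore given as a description, and no test of them is offered as support. RNA was sequenced from limb stump tissue of wild-type axolotls (*Ambystoma mexicanum*) of the leucistic strain at 3 days post-amputation. The repeatedly amputated limbs (Multi-amp; libraries MR2, MR5, MR6 and MR14) were stumps that had failed to regenerate after 5 earlier amputations and then received a 6th amputation slightly proximal to the old plane. The control limbs (libraries Control1, Control3, Control4 and Control6) belonged to uninjured siblings of matched age and size and received their 1st amputation. Each library came from a separate animal, and the repeatedly amputated limbs were chosen for their failure, so the number of amputations and the failure to regenerate cannot be told apart.

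Class 3 semaphorins are secreted proteins that steer growing axons and migrating cells. They bind neuropilins on the receiving cell, which signal inwards through plexins. Sema3A is best known in birds and mammals for collapsing growth cones and repelling sensory and sympathetic axons. Sema3C acts on neural crest and endothelial cells in mouse and can attract as well as repel. A regenerating salamander limb depends on its nerves, which innervate the wound epidermis after amputation. In the RefSeq annotation of axolotl assembly UKY_AmexF1_1, 7 class 3 semaphorin genes were listed, and SEMA3A shared its chromosome with SEMA3C, SEMA3E and SEMA3D. SEMA3E and SEMA3A were direct neighbours with 0 protein-coding genes between them, 1 gene lay between SEMA3A and SEMA3D, and 8 lay between SEMA3C and SEMA3E. The contigs were assembled without a genome, and no sequence of them was used here, so their names rest on the similarity searches of the study.

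Levels are given as the deposited expected counts, as CPM (counts per 1000000 of the library size after TMM scaling) and, for comparisons between contigs, as deposited FPKM, which also divide by contig length. Libraries held between 15596527 and 17980271 counts in repeatedly amputated limbs, against between 16765785 and 18437103 in control limbs. The filter on low counts kept 32757 contigs, all 3 semaphorin contigs among them, and the median log2 fold change over the contigs kept was -0.01. TR27786|c3_g1_i1 passed this filter largely through the MR libraries, so its direction was tied to the filter.

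*Sema3a* was the most abundant of the 3 contigs and stood 3.33-fold higher in repeatedly amputated limbs. Contig TR16445|c1_g2_i1 had 223 counts in MR2, 566 in MR5, 579 in MR6 and 230 in MR14, against 156 in Control1, 188 in Control3, 115 in Control4 and 81 in Control6. The corresponding levels were 13.4, 35.6, 34.2 and 14.7 CPM in the MR libraries, against 8.25, 9.87, 6.57 and 4.77 CPM in the control libraries. Thus MR5 and MR6 lay more than 2 times above MR2 and MR14, and the groups did not overlap, although MR2 exceeded the highest control, Control3, only by a factor of 1.36. The mean was 24.5 ± 12.1 CPM in repeatedly amputated limbs and 7.36 ± 2.19 CPM in control limbs (SD, n = 4 each), with a fitted log2 fold change of 1.73 (SE 0.395). In bulk tissue such as this, a larger number of expressing cells and more RNA per cell cannot be told apart. On the FPKM scale, *sema3a* stood above 92.4% of all contigs in repeatedly amputated limbs and above 80.6% in control limbs.

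*Sema3c* was far scarcer and stood between 4 and 5 times higher in repeatedly amputated limbs on both contigs. TR27786|c1_g1_i1 had 38 counts in MR2, 71 in MR5, 87 in MR6 and 52 in MR14, against 18 in Control1, 16 in Control3, 17 in Control4 and 11 in Control6. Every MR library was therefore at least 2.35 times above every control library on the CPM scale, and the control libraries lay close together. Its mean was 3.81 ± 1.26 CPM in repeatedly amputated limbs and 0.853 ± 0.148 CPM in control limbs (SD, n = 4 each), with a log2 fold change of 2.15 (SE 0.295). TR27786|c3_g1_i1 had 18, 33, 37 and 38 counts in MR2, MR5, MR6 and MR14, against 12, 6, 6 and 5 in Control1, Control3, Control4 and Control6. MR14 was the highest library of this contig, unlike *sema3a*, and Control1 stood above the other control libraries. Its mean was 1.95 ± 0.594 CPM in repeatedly amputated limbs and 0.397 ± 0.16 CPM in control limbs (SD, n = 4 each), with a log2 fold change of 2.27 (SE 0.36). Counts this low limit the precision of a single library. The exact 95% Poisson interval, covering counting error only, ran from 10.7 to 28.4 counts in MR2 and from 6.2 to 21.0 counts in Control1. These intervals, on counts not scaled for library size, overlapped, and the difference between these libraries was not tested. Summed over both contigs, *sema3c* had 56, 104, 124 and 90 counts in MR2, MR5, MR6 and MR14, against 30, 22, 23 and 16 in Control1, Control3, Control4 and Control6. The summed mean was 5.75 ± 1.71 CPM in repeatedly amputated limbs and 1.25 ± 0.271 CPM in control limbs (SD, n = 4 each), with a log2 fold change of 2.20.

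**Figure D1:**
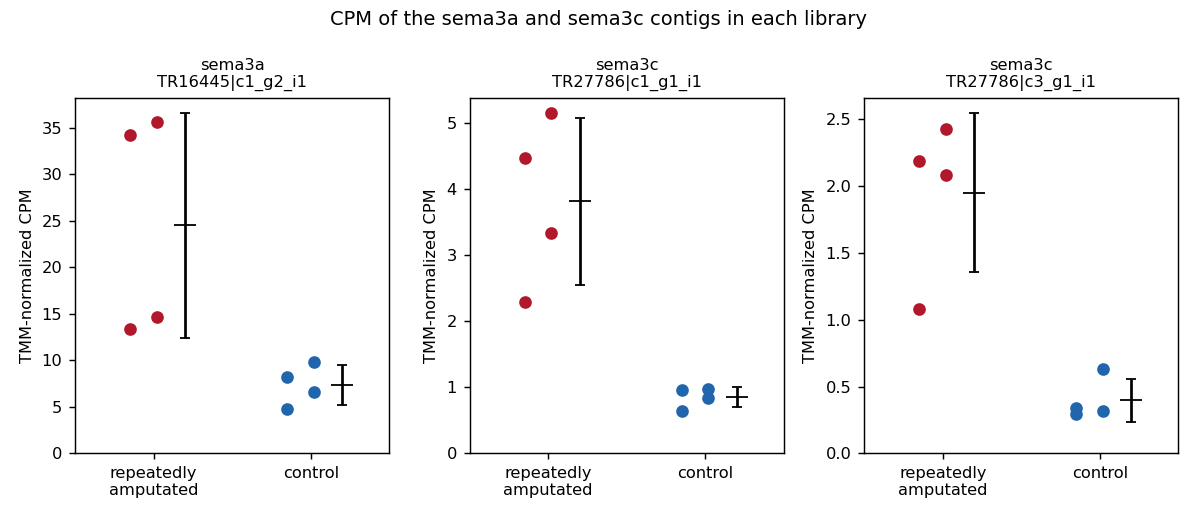
TMM-normalized CPM (vertical axis, linear from 0) of the *sema3a* contig and both *sema3c* contigs in each library, with 4 repeatedly amputated limbs on the left of each panel and 4 control limbs on the right. Points are libraries and the bars beside them the mean ± SD; *sema3a* splits into 34.2 and 35.6 CPM (MR6 and MR5) above 13.4 and 14.7 CPM (MR2 and MR14), and no panel shows overlap between the groups.

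Because the study chose these contigs from the same contrast, the following counts carry no weight of their own. At an FDR threshold of 0.05, edgeR's quasi-likelihood test, which is used throughout, called 0 of the 3 and 4 contigs, or 0.0122%, of all tested. Before adjustment, its p was under 0.05 in the higher direction for all 3, as it was for 6.47% of all contigs. All 3 were called higher by edgeR's exact test and by DESeq2's Wald test, which called 0.855% and 1.74% of all contigs higher. None (0 of 3) was called by limma-voom with sample quality weights, which called 0.00916%. All 3 were also without overlap in the higher direction, which held for 3.29% of all contigs tested. By the size of the fold change, 1.78% of the contigs tested stood higher than *sema3a*, 1.29% higher than TR27786|c1_g1_i1 and 1.18% higher than TR27786|c3_g1_i1.

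The counts of TR27786|c1_g1_i1 were between 1.37 and 2.35 times those of TR27786|c3_g1_i1 in the MR libraries, against between 1.5 and 2.83 times in the control libraries. TR27786|c3_g1_i1 held 32.1%, 31.7%, 29.8% and 42.2% of the *sema3c* counts in MR2, MR5, MR6 and MR14, against 40.0%, 27.3%, 26.1% and 31.2% in Control1, Control3, Control4 and Control6. Its share of their combined effective length, recovered from the ratio of counts to FPKM, was 31.9%. The exact 95% binomial interval of the share of counts reached to both sides of this value in every library but MR14, whose interval (31.9% to 53.1%) only just touched it. Corrected for length, the contigs stood at nearly the same level, 2.04 ± 0.596 FPKM for TR27786|c3_g1_i1 and 1.88 ± 0.578 FPKM for TR27786|c1_g1_i1 in repeatedly amputated limbs, against 0.449 ± 0.209 and 0.444 ± 0.0878 FPKM in control limbs (SD, n = 4 each). Whether they are pieces of 1 transcript was not tested.

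**Figure D2:**
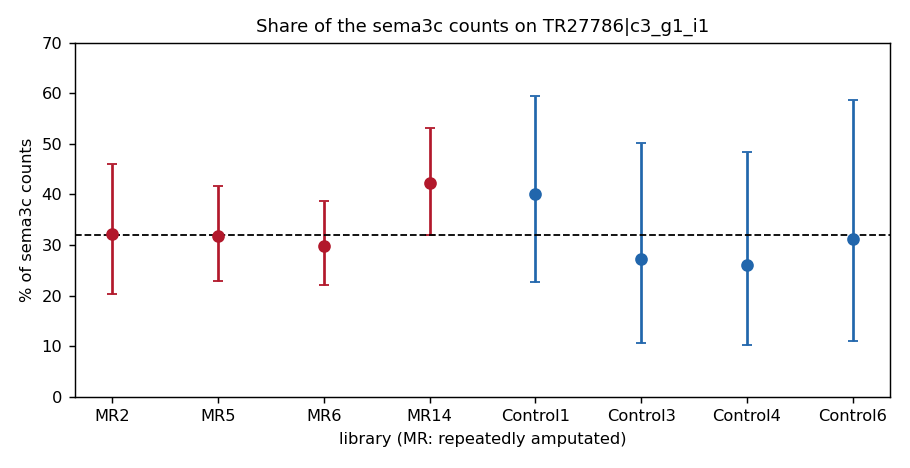
Percentage of the *sema3c* counts that fell on TR27786|c3_g1_i1 (vertical axis) in each library, with MR libraries on the left and control libraries on the right. Bars are exact 95% binomial intervals for counting error only and the dashed line is the contig's 31.9% share of effective length; the highest share was 42.2% in MR14.

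*Sema3a* exceeded *sema3c* per length in every library, so the order of levels was the same in both groups. *Sema3a* averaged 8.43 ± 3.92 FPKM in repeatedly amputated limbs and 2.71 ± 0.855 FPKM in control limbs (SD, n = 4 each). It stood between 3.1 and 5.6 times above TR27786|c1_g1_i1 in the MR libraries, and between 4.78 and 8.31 times above it in the control libraries. The ratio of *sema3a* to summed *sema3c* counts was 3.98, 5.44, 4.67 and 2.56 in MR2, MR5, MR6 and MR14, against 5.2, 8.55, 5.0 and 5.06 in Control1, Control3, Control4 and Control6. These ranges overlapped, with MR14 lowest and Control3 highest, and the difference was not tested.

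The component TR16445, the group of contigs that the assembler placed together, held a further named semaphorin. Contig TR16445|c1_g3_i1 carried the name SEM3B, another secreted class 3 semaphorin, and followed *sema3a* closely. It had 155, 334, 405 and 154 counts in MR2, MR5, MR6 and MR14, against 96, 125, 94 and 67 in Control1, Control3, Control4 and Control6, with a log2 fold change of 1.61 (SE 0.349, FDR = 0.281). The ratio of the *sema3a* counts to its counts averaged 1.51 ± 0.121 in repeatedly amputated limbs and 1.39 ± 0.205 in control limbs (SD, n = 4 each), beside a ratio of effective lengths of 1.21. On the FPKM scale it averaged 6.7 ± 3.01 in repeatedly amputated limbs and 2.33 ± 0.481 in control limbs (SD, n = 4 each). Within libraries, the *sema3a* FPKM was above that of this contig in 7 of 8 and equal to it in Control6, and all 4 count ratios in the MR libraries, from 1.43 to 1.69, lay above the ratio of lengths. The expected counts of both contigs were whole numbers in every library. Whether they belong to 1 gene was not tested, and the name SEM3B is uncertain for that reason.

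Of the other 8 contigs in the components TR16445 and TR27786, 4 passed the filter on low counts, and all 4 were higher in repeatedly amputated limbs, with a median log2 fold change of 1.67. TR27786|c0_g1_i1 passed the filter largely through the MR libraries, so this count by direction and this median carry no weight. The quasi-likelihood test called 0 of these 4 after adjustment, beside 0.0122% of all contigs, and before adjustment its p was under 0.05 for all 4, beside 6.47% of all contigs in the higher direction. The exact test and DESeq2 each called all 4, beside 0.855% and 1.74% of all contigs called higher. Besides the SEM3B contig, the unnamed contigs TR16445|c0_g1_i1 and TR27786|c0_g1_i1 are on the study's list, so only TR16445|c1_g1_i1 had not been directly chosen on these values. TR16445|c0_g1_i1 differed by 1.73 on the log2 scale (SE 0.353, FDR = 0.275 in the quasi-likelihood test) and held between 0.548 and 0.591 times the *sema3a* counts in the MR libraries, against between 0.513 and 0.667 times in the control libraries. TR27786|c0_g1_i1 had 29, 60, 75 and 39 counts in MR2, MR5, MR6 and MR14, against 17, 12, 8 and 4 in Control1, Control3, Control4 and Control6, with a log2 fold change of 2.46 (SE 0.444, FDR = 0.225). It was the contig of either component with the largest fold change among those tested.

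Contig TR16445|c1_g1_i1 was the one tested contig outside the study's list. Because it lies in the same component as the selected *sema3a* contig, its values and those of its assembled gene are no independent support. Its log2 fold change was 1.36 (SE 0.272, FDR = 0.275), smaller than that of *sema3a*. A second isoform of the same assembled gene, TR16445|c1_g1_i2, had 175 counts in MR5 and 111 in MR6 and 24.4 in Control1, and 0 in the other 5 libraries. With both isoforms summed, the assembled gene had 164, 372, 379 and 155 counts in MR2, MR5, MR6 and MR14, against 97, 134, 78 and 56 in Control1, Control3, Control4 and Control6. The log2 fold change was then 1.72 (SE 0.37, unadjusted p = 0.00149, FDR = 0.247 in edgeR's quasi-likelihood test), and MR5 and MR6 again stood highest. The remaining contigs, TR16445|c2_g1_i1, TR27786|c2_g1_i1 and TR27786|c4_g1_i1, had at most 28 counts in any library and overlapped between the groups.

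**Figure D3:**
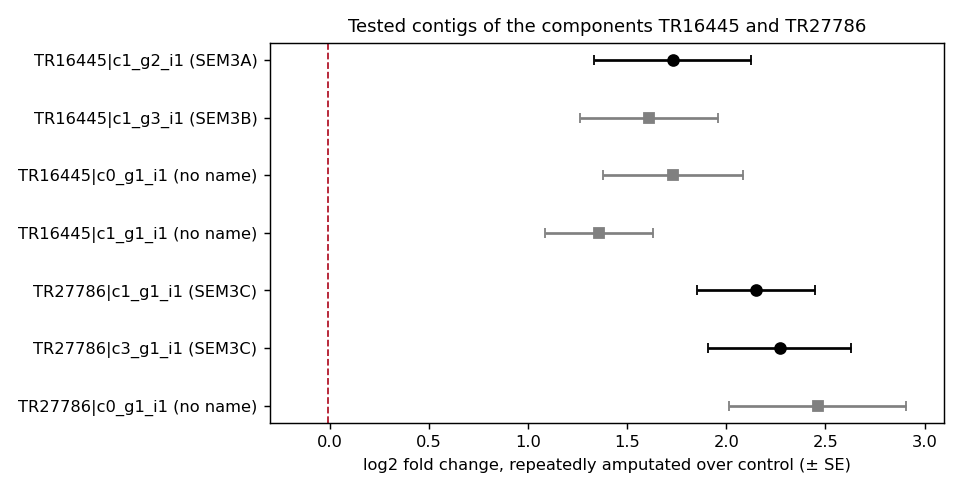
Fitted log2 fold change (horizontal axis, repeatedly amputated over control limbs) of the 7 tested contigs of the components TR16445 and TR27786, with bars of 1 SE. Black circles are the *sema3a* and *sema3c* contigs, grey squares the other contigs and the dashed line the median of all contigs tested; all 7 lie between 1.36 and 2.46.

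Axon guidance genes were taken from the same list of the study, so their count is no independent evidence of a direction. The names were chosen by hand: SEM3A, SEM3B, SEM3C, RND1, EPHA3, NTNG1, SDF1, ABLM2 and WNT5A. Other names on that list with a part in axon guidance were not sought, so the counts describe this choice only. The 10 contigs with the chosen names include the 3 *sema3a* and *sema3c* contigs and the SEM3B contig. Of the 6 that are not semaphorins, 4 were tested, and 3 were higher and 1 was lower in repeatedly amputated limbs, with a median log2 fold change of 1.98 beside -0.01 over all contigs. With the 4 semaphorin contigs counted again, 8 were tested, 7 higher and 1 lower. The quasi-likelihood test called 0 of these 8 after adjustment, whereas the p of all 8 was under 0.05 before it, as was that of 11.1% of all contigs in either direction. The exact test called all 8 and DESeq2 called 7, beside 1.14% and 2.34% of all contigs. Among secreted ligands, *sdf1*, the chemokine also called CXCL12, stood at a log2 fold change of 2.10 (SE 0.309, FDR = 0.161). *Wnt5a*, a Wnt ligand that also guides axons, had one of 1.86 (SE 0.317, FDR = 0.2). *Ntng1*, which encodes the membrane-anchored netrin-G1, had 22, 15, 27 and 18 counts in MR2, MR5, MR6 and MR14, against 5, 2, 10 and 3 in Control1, Control3, Control4 and Control6, with a log2 fold change of 2.15 (SE 0.455, FDR = 0.277). The contig that ran the other way was named RND1, a protein that binds the cytoplasmic part of plexins. It had 4, 8, 12 and 1 counts in MR2, MR5, MR6 and MR14, against 30, 23, 70 and 74 in Control1, Control3, Control4 and Control6. The log2 fold change was -2.84 (SE 0.666, FDR = 0.281). RND1 passed the low-count filter largely through the control libraries, and *ntng1* and TR27786|c3_g1_i1 largely through the MR libraries. Their directions were thus tied to the filter, so the counts by direction and the median log2 fold change of this list carry no weight. The contigs named EPHA3, an ephrin receptor, and ABLM2, an actin-binding LIM protein, were under the filter. EPHA3 had between 3 and 9 counts in MR libraries and at most 2 in control libraries, and ABLM2 had 2, 10, 2 and 7 counts in MR2, MR5, MR6 and MR14 and 0 in all 4 control libraries. Against a floor of 3 counts in each control library, the mean ABLM2 level of the repeatedly amputated limbs was 1.98-fold higher. MR2 and MR6, at 2 counts each, lay under that floor themselves, so this is no firm lower limit. Neuropilins and plexins were not analysed here, since none was among the names on the study's list.

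The contigs whose levels ran most like those of *sema3a* and *sema3c* over the 8 libraries were sought among all contigs tested. Likeness was measured as the root-mean-square difference of log2 CPM after each contig was centred on its own mean, and a flat line would stand at 0.974 from *sema3a* and at 1.09 from summed *sema3c*. The difference between the groups enters this measure, and so does the sharing of libraries. Names were available only for contigs on the study's list, so every named neighbour had already been found to differ between these groups. Nearest to *sema3a* was TR16445|c0_g1_i1 (0.116), and nearest among named contigs were SEM3B (0.162, rank 2 of 32756), LAMA3 (0.297, rank 8) and SDF1 (0.333, rank 13). LAMA3 is the laminin alpha chain of epithelial basement membranes, and it had 69.7, 160, 258 and 65.5 CPM in MR2, MR5, MR6 and MR14, against 35.2, 39.0, 32.9 and 30.9 CPM in Control1, Control3, Control4 and Control6. Like *sema3a* it was highest in MR5 and MR6. TR27786|c1_g1_i1 ranked 19th and TR27786|c3_g1_i1 ranked 284th from *sema3a*.

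With both *sema3c* contigs left out, the contig nearest to summed *sema3c* was SDF1 (0.175, rank 1 of 32755). The unnamed TR27786|c0_g1_i1, from the component of *sema3c*, had rank 5 (0.304). Next among the named were FBN1 (0.346, rank 9), which encodes the microfibril protein fibrillin, and GPC5B (0.349, rank 10), a G protein-coupled receptor. SDF1 had 84, 199, 199 and 129 counts in MR2, MR5, MR6 and MR14, against 43, 44, 45 and 27 in Control1, Control3, Control4 and Control6. On the CPM scale, MR2 was the lowest of the MR libraries and Control6 the lowest control in both *sdf1* and summed *sema3c*. The same held for *sema3a*, SEM3B and FBN1, so this order was not particular to *sema3c*. *Sema3a* ranked 42nd from summed *sema3c*, at a difference of 0.428.

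**Figure D4:**
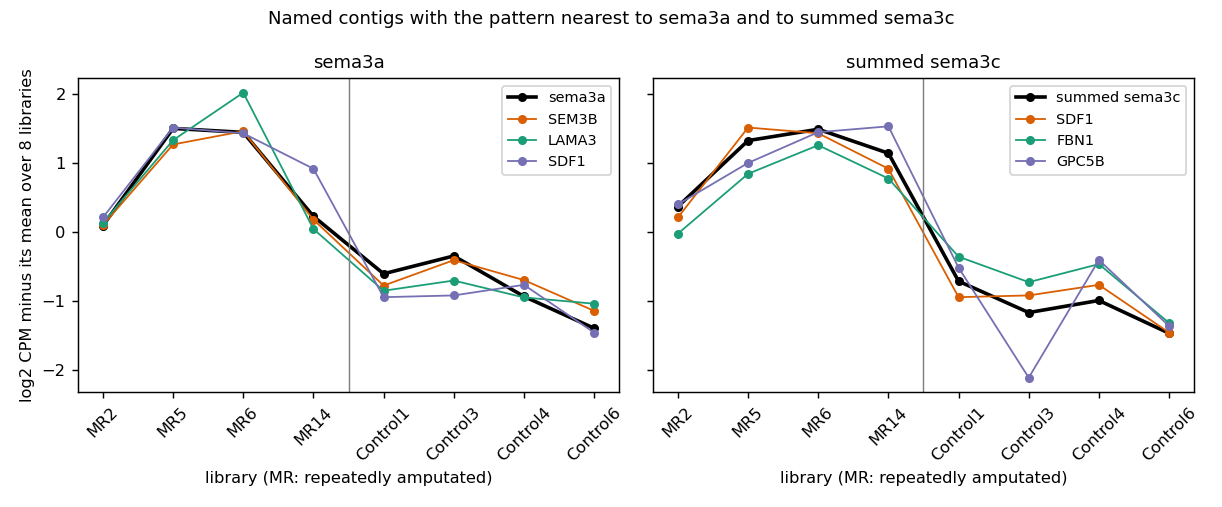
Log2 CPM minus its mean over the 8 libraries (vertical axis, no count added before the logarithm) for *sema3a* (left panel) and summed *sema3c* (right panel) in black, with the 3 named contigs nearest to each in colour. MR libraries stand left of the grey line and control libraries right of it; *sema3a*, SEM3B and LAMA3 peak in MR5 and MR6, whereas *sema3c*, SDF1, FBN1 and GPC5B are also high in MR14.

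The limb stump is a mixed tissue, and the marker lists of several cell types differed between the same libraries, all of them picked by the study on these values. The skeletal muscle list (24 contigs, 16 of 16 tested higher) summed to 334, 2450, 132 and 1630 CPM in MR2, MR5, MR6 and MR14, against 9.53, 43.3, 235 and 6.82 CPM in Control1, Control3, Control4 and Control6. Between the groups, the median muscle sum was 981 CPM in repeatedly amputated limbs and 26.4 CPM in control limbs. Among the MR libraries, MR5, with 35.6 CPM of *sema3a*, had the highest muscle sum of the 4. MR6, with 34.2 CPM of *sema3a*, had the lowest of the 4, below that of Control4. Control4, with the highest muscle sum of the controls, had 6.57 CPM of *sema3a* and 1.31 CPM of summed *sema3c*. The cartilage list held 10 contigs, with 3 of 3 tested higher and 2 at 0 in all controls. It ranged from 11.6 to 185 CPM in repeatedly amputated limbs, highest in MR5, and from 1.35 to 2.27 CPM in control limbs. With control sums this low, cartilage contigs passed the low-count filter largely through the MR libraries, and muscle contigs did so at least in part. Their counts by direction therefore carry no weight. Of all 32757 contigs tested, 16105 were higher. The B cell list (7 of 7 tested lower) ranged from 158 to 289 CPM in repeatedly amputated limbs and from 524 to 922 CPM in control limbs. In the epidermis list, 2 of 4 contigs, the laminin chains LAMA3 and LAMB3, were higher and 2, both keratins, were lower. The sums were 385, 832, 1420 and 329 CPM in MR2, MR5, MR6 and MR14, against 1320, 3980, 1510 and 1030 CPM in Control1, Control3, Control4 and Control6. As for *sema3a*, MR5 and MR6 stood above MR2 and MR14, and Control3 was the highest and Control6 the lowest control library. LAMA3, a part of these sums, was among the contigs nearest to *sema3a*, so this shared order is not independent of that likeness. MR5 and MR6 also stood above MR2 and MR14 in summed *sema3c*, SDF1 and FBN1, so their place was not particular to *sema3a*. Between the groups the epidermis sums overlapped and were mostly lower in repeatedly amputated limbs. Both contigs of the nerve list (PERI and GPM6B) were at 0 counts in all 4 control libraries and summed to between 2.92 and 12.5 CPM in repeatedly amputated limbs, highest in MR6. Only 1 of these 2 was tested, and the quasi-likelihood test called it, beside 0.0122% of all contigs. With 0 counts in all controls, this contig passed the low-count filter through the MR libraries alone. The study had also picked it on these values, so the call carries no weight. Being at 0 in every control limb, the list gives no measure of nerve content there. The part of these differences in the levels of *sema3a* and *sema3c* was not tested.

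**Figure D5:**
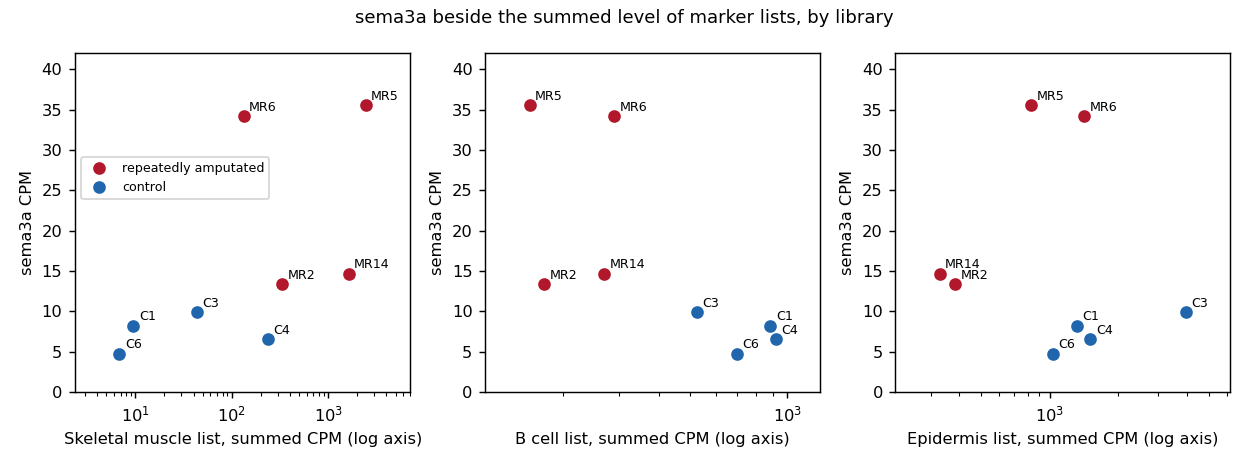
CPM of *sema3a* (vertical axis, linear) against the summed CPM of the skeletal muscle, B cell and epidermis lists (horizontal axes, logarithmic), 1 point for each library, with repeatedly amputated limbs in red and control limbs (C1, C3, C4 and C6) in blue. MR5 and MR6 share a high *sema3a* level, 35.6 and 34.2 CPM, at muscle sums of 2450 and 132 CPM. Muscle sums ranged from 132 to 2450 CPM in repeatedly amputated limbs and from 6.82 to 235 CPM in control limbs.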

How the data were processed

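Per the labels and methods, the authors sequenced limb RNA as paired reads (TruSeq v2, HiSeq; CASAVA 1.8.2 in the submitters' processing notes), assembled contigs with Trinity, named them with Trinotate and quantified them with RSEM. They deposited expected counts (not normalized, and not whole where fragments were divided between contigs) and FPKM scaled between libraries with TMM; versions of Trinity and RSEM are not given in the sources used here. Columns named MR were taken as the Multi-amp group, the only group besides Control, and columns were assigned to groups only. Protein names were matched from the study's list by group means (490 of 497 named entries matched 1 contig, tolerance 1e-06).

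Expected counts were rounded, filtered with filterByExpr, scaled by TMM and compared with edgeR 4.0.16 (R 4.3.3) by the robust quasi-likelihood F-test, with Benjamini-Hochberg adjustment (FDR) over all contigs tested. SEs were derived from the F statistic. The log2 CPM used for likeness had a prior count of 2. DESeq2 1.42.0 and limma 3.58.1, other filters and scalings, and fits without each library were alternatives, and edgeR's exact test for the fold changes was added after the data had been seen. Code was tested on simulated data. Named contigs were the semaphorin contigs, the other contigs of their components, the axon guidance list and the 3 named contigs nearest to *sema3a* and to summed *sema3c*. Members, lists and tests were chosen with earlier results of these data known. The 4 libraries of a group are separate animals.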

Additional observations from a re-analysis of the deposited data

Results flagged for a closer look

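In 1 of 24 groups of 4 libraries checked, a library stood far from the other 3. TR27786|c3_g1_i1 (SEM3C) was at 0.635 CPM, or 12 counts, in Control1, and the gap to the next control library took 0.856 of the range of the group. Chance flags about 1 in 20 such groups. Without Control1 the log2 fold change of this contig was 2.59, against 2.27 with all libraries.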

How the results depend on the processing

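The log2 fold changes of *sema3a*, of both *sema3c* contigs and of their sum stayed positive under all alternatives run. Their groups did not overlap, so leaving out 1 library could not have reversed the sign. On log2(FPKM + 1), which shrinks changes of low contigs by construction, the fold changes were 0.97 for TR27786|c1_g1_i1, 1.06 for TR27786|c3_g1_i1 and 1.00 for their sum, and 1.27 for *sema3a*. Without 1 library each they ranged from 1.499 to 1.935 for *sema3a*, 1.98 to 2.33 and 2.14 to 2.59 for the *sema3c* contigs, and 2.06 to 2.38 for the sum. Contigs called with an FDR under 0.05 numbered 4 in the quasi-likelihood test, but 21 with no filter, 9 with at least 10 summed counts, 374 in edgeR's exact test, 768 in DESeq2's, 11 on log2(FPKM + 1) and 10 on log2(FPKM + 0.1), and from 2 (without MR5) to 14 (without Control1) when 1 library was left out. The other contigs of the components had 0 calls, but 4 in the exact test and 4 in DESeq2's. The axon guidance list had 0, but 2 with no filter, 8 in the exact test and 7 in DESeq2's. This list includes the *sema3a*, *sema3c* and SEM3B contigs, so 1 of the 2 calls with no filter was TR27786|c1_g1_i1. The 8 calls in the exact test include these 4 semaphorin contigs. With no filter, the quasi-likelihood test called 1 of the 3 semaphorin contigs, TR27786|c1_g1_i1 (adjusted p = 0.034), beside 21 of 90843 contigs. All 3 had been selected on this contrast, so the call carries no weight. Adjusted p over all alternatives ranged from 0.00219 to 0.554 for *sema3a*, 3.26e-06 to 0.415 for TR27786|c1_g1_i1 and 8.94e-05 to 0.475 for TR27786|c3_g1_i1. The cause of these differences was not tested. No paired analysis was possible because GEO's labels number no replicates, the columns name no animal, and the column names of both groups share only 1 number (MR6 and Control6). Depth limits TR27786|c3_g1_i1 most, at 5 to 12 counts in a control library.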
